A study of Mus musculus with 11 samples.

Results

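Poorly covered autosomal bins of the mouse genome were examined in low-coverage whole-genome sequencing libraries of mouse embryonic stem cells (mESC). A bin is a stretch of about 50 kb for which the files hold the mean read depth, and its relative depth is that value divided by the median autosomal bin depth of the same library. The bins were selected on measured values. They are the autosomal bins, outside chromosomes 1, 6 and 8, whose relative depth averaged from 0.1 to 0.7 over the 3 long-term Ctrl libraries. The rule kept 41 of 38647 bins on the 16 remaining autosomes, which is 0.106% of them, out of 52958 bins in all. Their low values in long-term Ctrl are the rule and not a result. The lower limit removed nothing, since the lowest bin on these autosomes was at 0.458. The question was whether these bins were low in every line or only in some.

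The 11 libraries came from bulk DNA of cells grown in 2i medium on feeder cells. Ctrl cells carried Cre/ERT2, driven by the human ubiquitin C promoter, and the Rosa26-LSL-H2b-Egfp reporter, and Tet iTKO cells carried Tet1,2,3 fl/fl alleles in addition. There were 3 Ctrl and 3 Tet iTKO long-term libraries, each of a population grown from single cells and kept for 30 days after 2.5 days of 1 µM tamoxifen. For each of these genotypes there was also 1 pre-treatment library of cells that were not activated. A further 1 was acute, taken 4 days after the same tamoxifen treatment, and both are called early here. In the study, tamoxifen starts the deletion of the floxed Tet genes. The pre-treatment Tet iTKO cells were not activated, so their Tet genes were not deleted. Early Tet iTKO thus joins 1 library before and 1 after deletion, and its comparison with early Ctrl is not one of Tet loss alone. The last library was from Dnmt TKO cells, which lack the DNA methyltransferases Dnmt1, Dnmt3a and Dnmt3b. Its label also reads long-term, with no days of culture or tamoxifen given. Below, the long-term groups are those of Ctrl and Tet iTKO only. One Dnmt TKO library has no replicate error. The Ctrl and Tet iTKO lines came from mice bred by the study's laboratory, which reports a B6 background for all its mice. The floxed Tet alleles had been made in C57BL/6 stem cells. The strain of the Dnmt TKO line is not given in the sources used here.

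Read depth reports the copy number of a stretch only where a read can be placed at a single position. In multi-copy gene families, near-identical copies can compete for the same reads. Copies that the assembly keeps on contigs with no assigned position can take a share of them, where the mapping reference holds these contigs. Whether this bears on the depth of the bins here was not tested. Multi-copy gene families are known for differing in copy number between mouse strains. Among them are the chemokine genes of chromosome 4, whose Ccl19 and Ccl21 products bind CCR7 and guide T cells and dendritic cells into lymph nodes, the KRAB zinc finger genes, which silence transposable elements in early embryos, and the vomeronasal receptor genes, which serve pheromone detection.

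Total depth ran from 555 to 812 Mb per library, which is 215 to 315 reads of 50 bases in the median autosomal bin. The length of 50 was read from the values, while the study's methods state a longer minimum for mapped reads, and longer reads would mean fewer reads and larger counting errors than given here. A member bin held from 72 to 240 reads, so counting alone gave a standard error of 6.46% to 11.8% of its value. The 41 members varied between the 3 long-term Tet iTKO libraries with a median coefficient of variation of 7.78%, beside a counting error of 8.48%. Relative depth of the X chromosome was 0.560 to 0.592 in the 11 libraries, and that of the Y chromosome was 0.0269 to 0.0381 in the 4 early libraries against 0.457 to 0.558 in the other 7. The Dnmt TKO library stood apart, with 375 bins of the 16 autosomes at the same limits against 40 to 51 in each of the other groups outside the rule. Results are therefore given with and without it. In bulk DNA, sequence missing from some cells cannot be told apart from fewer copies in every cell.

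The 41 bins lay at 5 loci on 4 chromosomes and covered 2.03 Mb in 9 runs of rows that follow each other in the files. None of them held an unknown base in the GRCm38 assembly, the build of the files. They overlapped 73 annotated genes, of which 43 are protein-coding and 20 are pseudogenes, and 2 bins overlapped none. The longest run was 20 bins at chr4:41786374-42836663, interrupted by a 50 kb gap of unknown bases, with the chemokine genes Ccl19, Ccl21a, Ccl21b, Ccl27b and Gm10591. On chromosome 2, 15 bins in runs of 8, 4, 2 and 1 lay within chr2:175299338-176700393, among them those of the zinc finger genes Zfp965 to Zfp969 and Zfp973. A further 2 single bins lay at chr2:90164949-90214939 and chr2:90314922-90364911, over the protein-coding gene Gm13769 and the pseudogenes Gm13768 and Gm13767. One run of 3 bins at chr7:5673290-5823799 held Vmn1r62 and Vmn1r63, and the single bin chr19:56479969-56529984 overlapped Plekhs1 and Dclre1a, the latter a gene for a nuclease of DNA crosslink repair. Members overlapped 0.173% of the 42114 genes annotated on the 16 autosomes. Of 31 gene families listed by symbol, the Zfp family, with 6 of 358 genes, and the Vmn1r family, with 2 of 246, overlapped a member, and the other 29 did not. The list lacked 3 families that were added after the genes in the bins were seen, the Ccl family with 6 of 21 genes, Fam205 with 3 of 5 and Il11ra with 1 of 2.

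The sequences below show how alike the copies are. Ccl21b (chr4:42255767-42256432, plus strand) and Gm10591 (chr4:42612195-42612860, plus strand) have the same 402-base coding sequence, and that of Ccl21a (chr4:42772860-42773993, minus strand) differs from both at 2 positions, T84A and C194T, counted from the start codon with the Ccl21a base first. The stretch from base 64 to base 213 is shown, from the GENCODE transcripts of GRCm38, with the differing bases in capitals.
Ccl21a: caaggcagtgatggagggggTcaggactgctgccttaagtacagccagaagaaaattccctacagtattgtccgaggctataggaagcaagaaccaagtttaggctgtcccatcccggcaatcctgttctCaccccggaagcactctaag
Ccl21b: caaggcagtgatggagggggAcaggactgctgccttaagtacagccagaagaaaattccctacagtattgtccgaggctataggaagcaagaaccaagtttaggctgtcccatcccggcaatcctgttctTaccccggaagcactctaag
Gm10591: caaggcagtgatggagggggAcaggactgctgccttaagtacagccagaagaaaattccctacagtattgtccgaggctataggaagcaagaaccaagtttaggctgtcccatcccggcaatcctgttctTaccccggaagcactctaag
A 50-base stretch of coding sequence between the capitals is the same in all 3 genes.

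On chromosome 2, the 200-base stretch of coding exon held by the most member bins is shown, from the plus strand of GRCm38 at chr2:175325798-175325997 in Gm4631. It stood without a single difference, hence no capitals, at 13 places of the cluster. 8 of these were in 8 member bins, in Gm4631, Gm4724, Gm11007, Gm2007, Gm2026, Gm2004, Gm14434 and Gm14308.
Zinc finger exon: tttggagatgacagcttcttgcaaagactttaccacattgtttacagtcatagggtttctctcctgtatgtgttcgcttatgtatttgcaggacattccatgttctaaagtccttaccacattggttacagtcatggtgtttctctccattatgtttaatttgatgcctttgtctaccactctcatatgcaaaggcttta

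On chromosomes 7 and 19 the repeat is a single second copy, on a contig that the assembly leaves without a position. The chromosome 7 stretch chr7:5728917-5765783, 36867 bases long, had no difference from a 176 kb unlocalized contig of chromosome 7. On chromosome 19 the same held for 33374 bases at chr19:56492904-56526277 and a 39.3 kb unlocalized contig of chromosome 1. The first 120 bases of the unmasked 200-base word nearest the middle of each locus are shown as samples of these stretches, at chr7:5750820-5750939 and chr19:56505379-56505498 on the plus strand.
Chromosome 7: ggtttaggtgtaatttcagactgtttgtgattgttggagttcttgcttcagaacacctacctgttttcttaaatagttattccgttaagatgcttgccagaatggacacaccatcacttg
Chromosome 19: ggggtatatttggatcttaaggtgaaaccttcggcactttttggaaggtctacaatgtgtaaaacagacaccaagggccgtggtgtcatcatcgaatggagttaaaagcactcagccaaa

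On average the bins were also low in the 8 libraries that the rule did not use. Mean relative depth of the 41 bins was 0.592, 0.595 and 0.597 in the long-term Ctrl libraries that chose them. It was 0.609, 0.615 and 0.584 in the long-term Tet iTKO libraries, 0.602 and 0.599 in the pre-treatment and acute Ctrl libraries, 0.616 and 0.608 in those of Tet iTKO, and 0.541 in Dnmt TKO. The 10 Ctrl and Tet iTKO libraries thus lay close together and Dnmt TKO below them. Of the 451 bin values, 390 were at or below 0.7, which is 86.5%, and 24 of the 41 bins were at or below 0.7 in every library. Both counts include the 3 long-term Ctrl libraries, which are low by the rule. In each of the 8 libraries outside the rule, 31 to 37 of the 41 bins were at or below 0.7. The group mean was at most 0.7 in all 4 groups outside the rule for 29 of the 41 bins, or 70.7%, and for 32 bins without the Dnmt TKO library. No bin had a group mean above 0.85, taken as usual depth, in any of these groups, and the highest such mean was 0.824. The other 12 bins lay between the limits in at least 1 group.

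**Figure D1:**
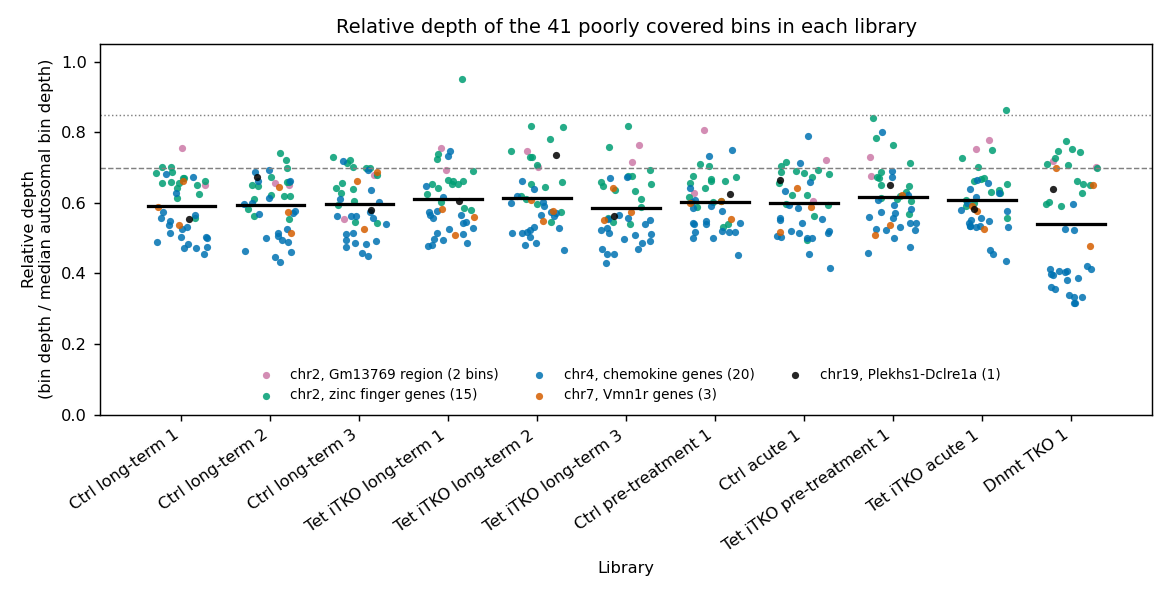
Relative depth of the 41 bins (y axis, bin depth over the median autosomal bin depth) in each of the 11 libraries (x axis). Points are bins coloured by locus with sideways jitter, black bars are means over the 41 bins, the dashed line is the selection limit of 0.7 and the dotted line the usual-depth limit of 0.85. Library means lie between 0.541 and 0.616, and in Dnmt TKO the chromosome 4 bins reach down to 0.315.

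Lists drawn with the same limits in the other Ctrl and Tet iTKO groups largely held the same bins, while that of Dnmt TKO held mostly other bins. In long-term Tet iTKO, 40 bins were at 0.1 to 0.7 and 34 of them were members, which is 85% of that list and 82.9% of the members. In early Ctrl, 38 of 51 bins were members, or 74.5% and 92.7%. In early Tet iTKO, 34 of 41 bins were members, or 82.9% of either list. In Dnmt TKO, 32 of 375 bins were members, or 8.53% of that list and 78.0% of the members. The remaining 343 low bins of Dnmt TKO were not low in long-term Ctrl, where 328 of them were above 0.85.

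The members nearest the limit were all on chromosome 2. Inside it were chr2:175747086-175796347 at 0.694, chr2:90164949-90214939 at 0.695 and chr2:176138703-176184010 at 0.699. Outside it were chr7:9385874-9436043 at 0.730, chr2:176229320-176274627 at 0.731 and chr2:176419937-176462914 at 0.736. The chromosome 7 bin outside was at 0.679 to 0.702 in the other Ctrl and Tet iTKO groups and at 1.03 in Dnmt TKO.

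What the members shared beyond depth was repeated sequence. Every 250 bases of a bin, a 200-base word was looked up on both strands of the assembly, including 44 contigs that are not placed within a chromosome. The share of words found more than once had a median of 100% in the members, against a median of 0% and an upper quartile of 3.02% in the 30365 bins of the same autosomes at a relative depth of 0.9 to 1.1 in long-term Ctrl. It was over 50% in 40 of the 41 members, and the exception, the first bin of the chromosome 4 run, was at 41%. Soft-masked repeats made up a median of 50.3% of the members and 31.5% of the comparison bins, but this was not shared by the loci. The medians were 34.0% on chromosome 4, 24.5% on chromosome 19, 57.5% and 63.2% at the chromosome 2 loci and 64.9% on chromosome 7. GC content had medians of 44.6% in the members and 41.3% in the comparison bins. By locus it was 47.0% on chromosome 4, 44.6% on chromosome 19, 42.1% and 40.2% on chromosome 2 and 40.1% on chromosome 7. Of 498 bins with over 50% of words found again, 40 were members, which is 8.03%, and of 190 bins with over 90%, 38 were members, which is 20%. Of the 38149 bins with at most 50%, 1 was a member. Most repeated bins were thus no members, and these shares describe the list the rule chose.

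The copies lay in different places at each locus. In the zinc finger cluster, 92.6% of the distinct words with 2 to 20 copies stood again within the locus, 47.8% had a copy in the 2 Mb around it and none had one on an unplaced contig, with a median of 7 copies. At the first chromosome 2 locus the median was 2 copies, and 89.7% stood again within the locus. On chromosome 4 the median was 5 copies, 88.4% stood again within the locus, and 93.9% had a copy on a contig, chiefly the 228 kb, 208 kb and 192 kb unlocalized contigs of chromosome 4, of which 98.3%, 99.1% and 96.7% were covered by such words. On chromosomes 7 and 19 all such words had a contig copy, none stood again within the locus and the median was 2 copies. The deposited rows cover chromosomes only, so depth on the contigs was not analysed here.

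Bins copied on contigs were few. Over 50% of words had a contig copy in 54 bins of the 16 autosomes, of which 22 were members, or 40.7%. Of these, 18 were on chromosome 4, 3 on chromosome 7 and 1 on chromosome 19. The other 32 all lay at chr5:93788511-95786943, where relative depth in long-term Ctrl was 0.791 to 1.28.

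**Figure D2:**
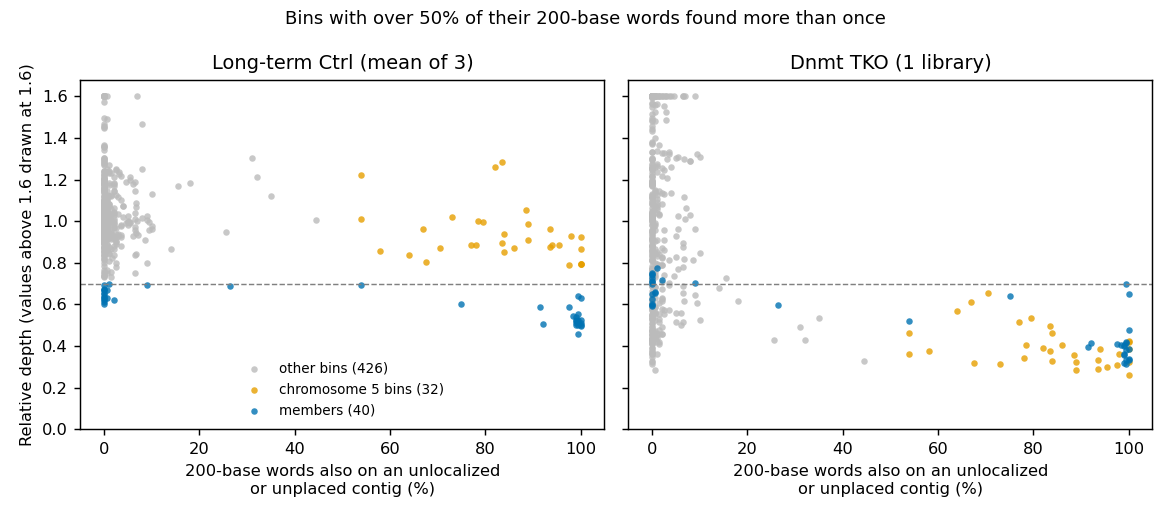
Relative depth (y axis, values above 1.6 drawn at 1.6) against the percent of 200-base words with a copy on an unlocalized or unplaced contig (x axis), for the 498 bins of the 16 autosomes with over 50% of words found more than once, in long-term Ctrl (left, mean of 3 libraries) and Dnmt TKO (right, 1 library). The dashed line is 0.7, below which the 40 members lie in the left panel by the rule, and the chromosome 5 bins lie above it in long-term Ctrl and below it in Dnmt TKO.

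The chemokine run of chromosome 4 had the lowest mean of the 5 loci in every group but early Tet iTKO, where chromosome 7 was at 0.56 and this run at 0.566. Averaged over its 20 bins, relative depth was 0.535, 0.553 and 0.549 in long-term Ctrl and 0.560, 0.553 and 0.522 in long-term Tet iTKO. It was 0.566 and 0.556 in pre-treatment and acute Ctrl, 0.573 and 0.559 in pre-treatment and acute Tet iTKO, and 0.401 in Dnmt TKO. The 10 Ctrl and Tet iTKO libraries overlapped between genotypes and stages, and Dnmt TKO lay below them all. Group means were at most 0.7 in all groups for 18 of the 20 bins. In long-term Ctrl the bin before the run was at 0.85 and the bin after it at 0.801, both above 0.7 by the rule. Outside the rule, the bins before and after were at 0.804 and 0.851 in long-term Tet iTKO and 0.822 and 0.783 in early Ctrl. They were at 0.905 and 0.78 in early Tet iTKO and 0.825 and 0.766 in Dnmt TKO. Of their words, 6.50% and 25% were found again.

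A few bins of this run had fewer contig copies than the others. They were the first, the second and the ninth, with 38%, 26.5% and 54.0% of words on a contig against 91.5% to 100% in the other 17. Their group means were 0.614 to 0.689 in long-term Tet iTKO and 0.522 to 0.597 in Dnmt TKO, while the 17 bins were at 0.478 to 0.562 and 0.315 to 0.421, so that in these groups the bins with fewer contig copies were all higher. The same held in early Ctrl, at 0.677 to 0.77 against 0.454 to 0.582. In early Tet iTKO the ranges overlapped, at 0.606 to 0.734 and 0.446 to 0.649. This split was made after the values were seen and is a description. In the first and second bins, fewer words were also found again anywhere, 41% and 70%, against 98.5% in the ninth. For the first and second, fewer contig copies cannot be told apart from less repeated sequence as a whole.

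**Figure D3:**
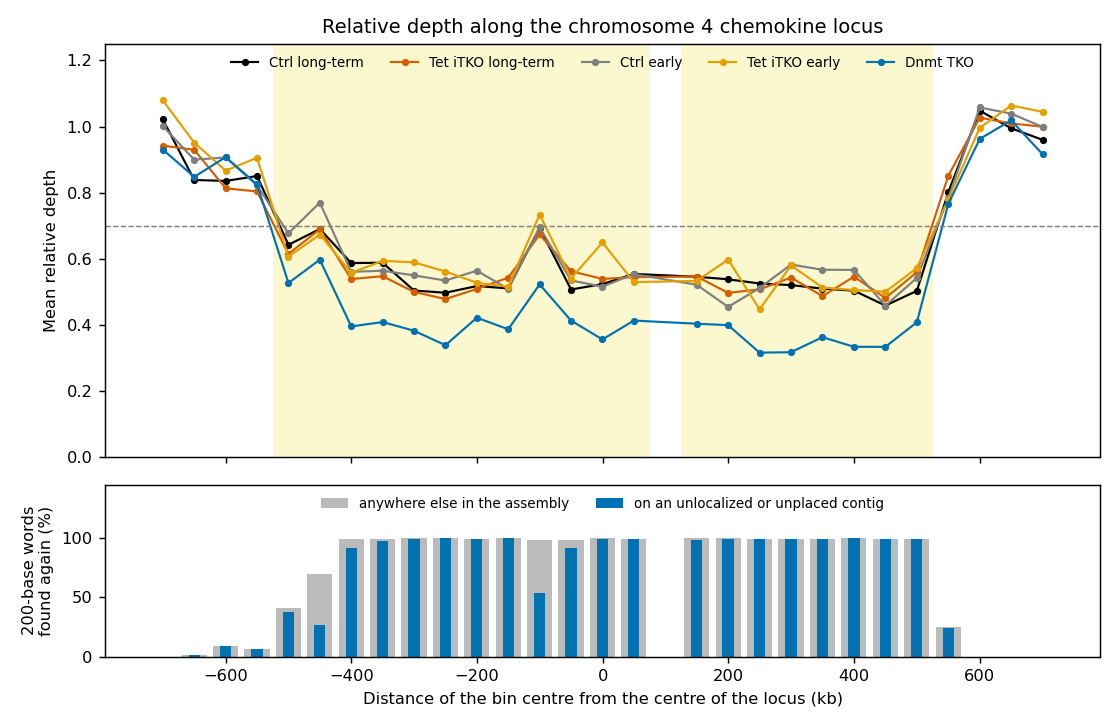
Mean relative depth of each group (top, y axis) and percent of 200-base words found again (bottom, y axis; grey anywhere else in the assembly, blue on a contig) against the distance of the bin centre from the centre of the chromosome 4 locus in kb (x axis), with 4 flanking bins on each side. Shaded stretches are the 20 members, the unshaded break is the 50 kb of unknown bases, and the dashed line is 0.7; Dnmt TKO runs below the other groups across the shaded part and with them in the flanks.

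The chemokine gene bins ran from the lowest of all members to the middle of the run. Ccl21a and Ccl19 share the bin chr4:42736539-42786601, which was at 0.456, 0.433 and 0.485 in long-term Ctrl, the lowest mean of all 41. It was at 0.499, 0.515 and 0.428 in long-term Tet iTKO, 0.5 and 0.416 in pre-treatment and acute Ctrl, 0.544 and 0.456 in pre-treatment and acute Tet iTKO, and 0.333 in Dnmt TKO. Only Dnmt TKO was outside the range of the other libraries. Ccl21b, in chr4:42236216-42286198, was at 0.473, 0.507 and 0.540 in long-term Ctrl and higher, at 0.566, 0.562 and 0.558, in all 3 long-term Tet iTKO libraries. In the early libraries that bin was at 0.547 and 0.520 in Ctrl and 0.527 and 0.553 in Tet iTKO, which overlapped, and in Dnmt TKO it was at 0.412. Ccl27b, whose family draws T cells to skin, and Il11ra2, a receptor gene of the interleukin 11 family, share chr4:42636414-42686476, which was at 0.472, 0.446 and 0.610 in long-term Ctrl and 0.479, 0.487 and 0.493 in long-term Tet iTKO. It was at 0.540 and 0.593 in early Ctrl, 0.560 and 0.465 in early Tet iTKO and 0.362 in Dnmt TKO.

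The zinc finger cluster of chromosome 2 was less deep in its shortfall and more mixed. Its 15 bins averaged 0.655, 0.641 and 0.653 in long-term Ctrl, 0.673, 0.682 and 0.646 in long-term Tet iTKO, 0.635 and 0.646 in early Ctrl, 0.671 and 0.663 in early Tet iTKO, and 0.683 in Dnmt TKO. Here Dnmt TKO was the highest library, against 0.682 for the next. Group means were at most 0.7 in all groups for 7 of the 15 bins, and the other 8 lay between the limits. The 7 rows between the members were at 0.731 to 0.891 in long-term Ctrl with 99.4% to 100% of words found again, so members and neighbours had the same kind of sequence and differed in depth, by the rule. The group means of the members outside the rule ran from 0.548 to 0.824 over the cluster.

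**Figure D4:**
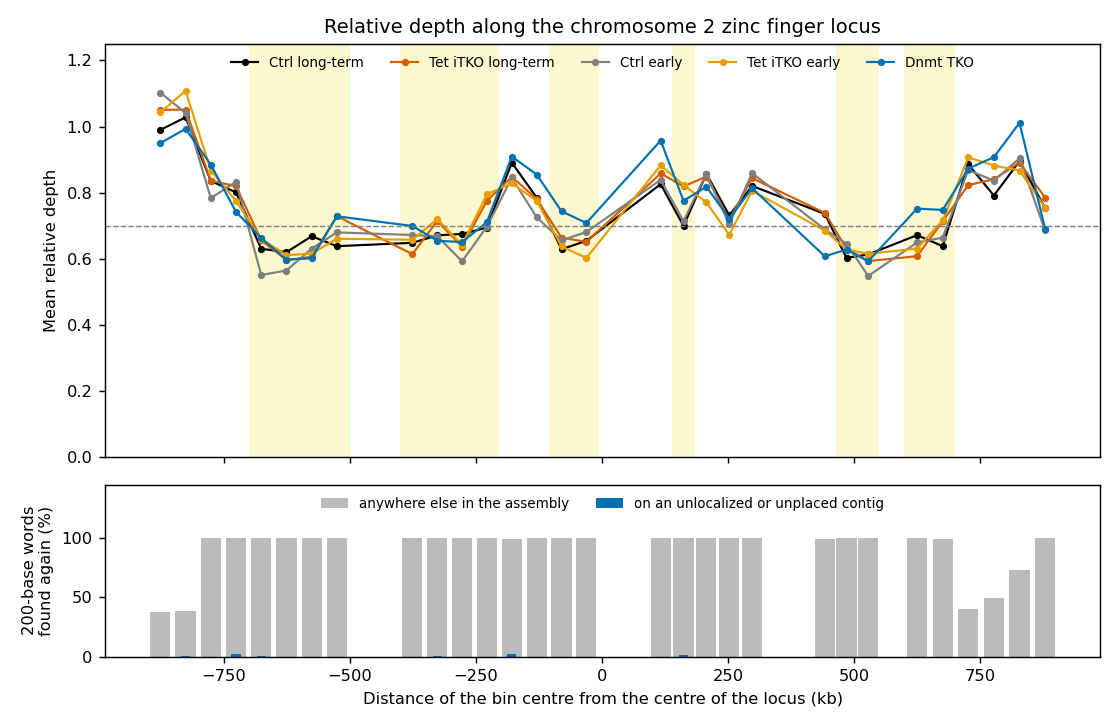
Mean relative depth of each group (top) and percent of 200-base words found again (bottom; grey anywhere else in the assembly, blue on a contig) against the distance of the bin centre from the centre of the chromosome 2 zinc finger locus in kb, with 4 flanking bins on each side. Shaded stretches are the 15 members and the dashed line is 0.7; unshaded rows reach 0.891 in long-term Ctrl, and places with no bar are unknown bases.

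The bin farthest from low in another group was chr2:176138703-176184010, which holds Gm2004. It was at 0.686, 0.698 and 0.714 in long-term Ctrl and 0.711 and 0.716 in pre-treatment and acute Ctrl. It was at 0.951, 0.748 and 0.758 in long-term Tet iTKO, 0.783 and 0.864 in pre-treatment and acute Tet iTKO, and 0.775 in Dnmt TKO. The long-term Ctrl values are low by the rule. The bin was named for its early Tet iTKO mean, 0.824, the highest group mean outside the rule. Its early values thus took part in naming it. The values 0.951 and 0.864 were the only 2 of the 451 above 0.85. In the limma fit the early difference of this bin was 0.21 ± 0.11 (moderated SE, log2, 2 against 2 libraries), with an adjusted p of 0.987. A moderated SE draws on the spread within all groups of the fit and across bins, not on these libraries alone. The Gm13769 bin, singled out after its values were seen, is chr2:90314922-90364911, at 0.65, 0.656 and 0.555 in long-term Ctrl and 0.692, 0.748 and 0.717 in long-term Tet iTKO. It was at 0.628 and 0.606 in early Ctrl, 0.676 and 0.753 in early Tet iTKO and 0.719 in Dnmt TKO. Here too both early Tet iTKO values were above both early Ctrl values, and the difference was 0.21 ± 0.11 with an adjusted p of 0.987.

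The Vmn1r and Plekhs1 loci were low in every group. The 3 chromosome 7 bins averaged 0.595, 0.578 and 0.625 in long-term Ctrl, 0.551, 0.578 and 0.589 in long-term Tet iTKO, 0.587 and 0.583 in early Ctrl, 0.556 and 0.564 in early Tet iTKO, and 0.609 in Dnmt TKO. The chromosome 19 bin was at 0.553, 0.674 and 0.578 in long-term Ctrl, 0.605, 0.735 and 0.562 in long-term Tet iTKO, 0.625 and 0.664 in early Ctrl, 0.649 and 0.583 in early Tet iTKO, and 0.640 in Dnmt TKO. At neither locus did any group stand outside the range of the others. In the flanks, 4 bins on each side, long-term Ctrl was at 0.808 to 1.11 around the chromosome 7 run and 0.812 to 1.01 around the chromosome 19 bin. The bins next to the members are above 0.7 in long-term Ctrl by the rule. In Dnmt TKO, outside the rule, these flanks were at 0.796 to 1.13 and 0.873 to 1.09. In long-term Tet iTKO the bins before and after were at 0.798 and 0.957 on chromosome 7 and 0.927 and 1.06 on chromosome 19.

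The early populations were compared with a test that did not use the libraries of the rule. Depth was put on the log2 scale after a GC correction for each library, and limma was fitted over 47924 autosomal bins in the 8 other libraries. Between early Tet iTKO and early Ctrl, 2 libraries each, none of the 41 members passed an adjusted p of 0.05, against 0.073% of all bins tested. At an unadjusted p under 0.05 there were 3 members, where 5.02% of all bins lay. The median difference was -0.01 over the members and 0.00 over all bins, and 20 of the 41 members were higher in Tet iTKO. The largest was that of chr4:42486226-42536288, which holds Fam205a2, at 0.453 and 0.455 in pre-treatment and acute Ctrl and 0.556 and 0.638 in those of Tet iTKO. This difference was 0.38 ± 0.12 (moderated SE, log2) with an adjusted p of 0.743. Long-term and early Tet iTKO differed in Y chromosome depth, as given above, so that line of origin and time in culture cannot be told apart between them. Growth from single cells differed too, and so did tamoxifen and Tet deletion for the pre-treatment library. None of these can be told apart between long-term and early Tet iTKO. In that comparison, of 3 against 2 libraries, again no member passed, against 0.048% of all bins. There were 2 members at an unadjusted p under 0.05, where 5.52% of all bins lay, and the median difference was -0.02. The moderated standard errors of single members set what these tests could detect. They were 0.105 to 0.132 in the early comparison and 0.0959 to 0.121 in the other on the log2 scale. A p that misses the threshold does not show that values were equal.

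Long-term Tet iTKO minus long-term Ctrl is given with no test, since long-term Ctrl chose the members. The median log2 difference of the members was -0.01, and 19 of 41 were higher in Tet iTKO. The 3 libraries of one group lay wholly above or below those of the other in 7 members, 5 higher and 2 lower in Tet iTKO, against 11.3% of all autosomal bins. The higher ones were the bins of Gm2004, Gm13769, Zfp973 and Ccl21b and the middle bin of chromosome 7.

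Dnmt TKO was lower across the chromosome 4 run. Its log2 difference from the mean of the 7 other libraries outside the rule was -0.5 or beyond in 5 of the 41 members, all on chromosome 4, against 0.849% of all autosomal bins, and was 0.5 or more in none, against 2.24%. All 20 chromosome 4 bins were below 0, with a median of -0.42 and a range of -0.78 to -0.22, and in all 20 Dnmt TKO was the lowest of the 11 libraries, as it was in 14.2% of all autosomal bins. Elsewhere it was the lowest library in 1 member, the middle bin of chromosome 7. Its mean over that run, 0.401, was 27.4% below the 0.553 ± 0.0146 (SD, n = 10) of the other libraries. These 10 libraries of several groups include the 3 long-term Ctrl libraries that chose the bins, as do the rankings among 11. In the 7 other libraries outside the rule, the mean over the run was 0.522 to 0.573. The medians of the other loci were -0.01 in the first chromosome 2 locus, 0.05 in the zinc finger cluster, 0.10 on chromosome 7 and 0.04 on chromosome 19. The 20 chromosome 4 bins lie in the same run and share words, so they are not independent of each other. The shares over all bins are therefore no measure of how unusual the run is. With 1 library there is no test.

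The lowest bins in Dnmt TKO were named by size of the difference. The largest fall, -0.78, was that of chr4:42586351-42636413 with Gm10591, at 0.317 in Dnmt TKO and 0.524 to 0.607 in the 7 other libraries. The next were -0.65 in chr4:42686477-42736538 with 4930578G10Rik, -0.61 in chr4:42286199-42336180 with Fam205a3, -0.59 in chr4:42536289-42586350 with Gm2163 and -0.57 in chr4:42036287-42086268 with Gm3892. The largest rises were 0.29 in chr7:5773630-5823799 with Vmn1r63, 0.25 in chr2:176598873-176649632 with Gm14308, 0.16 in chr2:175894871-175944132 with Zfp966, 0.13 in chr2:175944133-175993394 with Gm2026 and 0.12 in chr2:175599302-175648562 with Gm11007. The Vmn1r63 bin was at 0.7 in Dnmt TKO and 0.510 to 0.641 in the 7 others, so that it too lay outside their range.

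**Figure D5:**
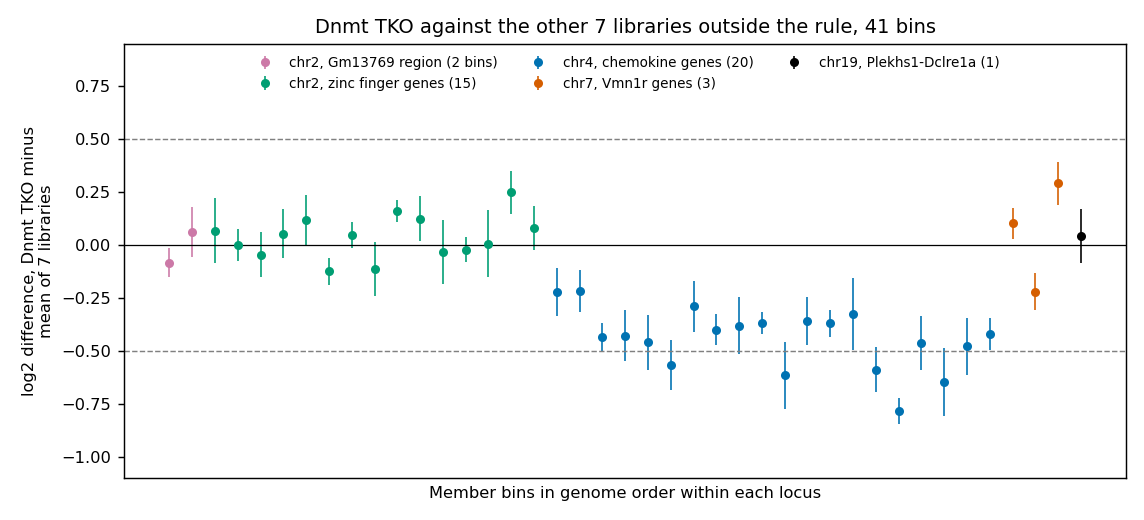
Difference of Dnmt TKO from the mean of the 7 other libraries outside the rule (y axis, log2 of GC-corrected relative depth) for each of the 41 bins in genome order within its locus (x axis). Points are bins, bars are the SD over the 7 libraries and not an error of the difference, and dashed lines mark 0.5 in either direction; all 20 chromosome 4 bins are below 0 and 5 are beyond -0.5.

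Bins at other places were low in Dnmt TKO as well. Of its 343 low bins that were not members, 311 had a contig copy for at most 50% of words and 32 for more. The 32 with more, all on chromosome 5, averaged 0.396 in Dnmt TKO against 0.901 to 0.945 in the 10 other libraries, and Dnmt TKO was the lowest library in all 32. The chromosome 7 average and the chromosome 19 bin did not share this, as their values above show. In the middle bin of chromosome 7, though, Dnmt TKO was the lowest library, at 0.477 against 0.510 to 0.599 in the 7 others outside the rule. The part of contig copies, strain and library in the Dnmt TKO values was not tested.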

How the data were processed

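Groups were taken from the sample labels. Per the study's methods, the authors trimmed reads, used BWA-mem for mapping to mm10 and took out optical duplicates (Picard), while the submitters' processing notes name BSMAP as the mapper for these libraries. Which was used for the files was not settled, and mappers can differ in how they place reads in repeats. The authors deposited, for each bin of about 50 kb, the mean coverage (depth), a signal not scaled to the library or corrected for GC content or mappability. Whether unplaced contigs were in the mapping reference, and any mapping quality filter, is not given in the sources used here. Depth times bin length gave base sums, 95.4% of which were multiples of 50 among the 3432 bin values under 400 bases, and reads are base sums divided by 50. PCR duplicates beyond those removed are not independent, so counting errors cover counting only. Members, lists and tests were chosen with earlier results of these data known.

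Depth was divided by the median of all 47924 autosomal bins of the library (numpy 2.4.6, pandas 2.3.3). For tests, log2(relative depth + 0.01) was corrected for GC content by lowess (span 0.3, 3 iterations, on bins at 0.5 to 1.5; statsmodels 0.14.6). limma 3.58.1 in R 4.3.3 (lmFit, eBayes with trend, two-sided, Benjamini-Hochberg over all bins with a mean of at least 0.1) was fitted on the 8 libraries outside the rule with 4 group means, and the fit was tested on simulated data. Whether replicates were separate cultures beyond the clonal long-term populations is not given, and p-values measure the spread between these libraries. Runs, the 5 largest rises and falls in Dnmt TKO and the 3 bins nearest the limit were named. Word searches used the GRCm38.p6 chromosomes and 44 contigs, with words every 10 bases in members for copy places. Genes came from GENCODE M21.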

Additional observations from a re-analysis of the deposited data

How the results depend on the processing

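The choice of members depended on the upper limit. At 0.6 in place of 0.7 there were 18 members, and 100% of them were low in all groups. With low taken as at most 0.75, 87.8% of the 41 were low in all groups. Under a lower limit of 0.2, depth per known base, GC-corrected depth and the median over 16 autosomes, the same 41 bins were chosen, and 27 to 29 of them were low in all groups. Leaving out 1 long-term Ctrl library at a time left 39 bins, all among the 41, of which 74.4% were low in all groups. With usual depth taken as above 0.8, or without the second long-term Tet iTKO library, 1 bin reached it in another group.

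No member was called in either limma comparison under any alternative run, including each library of the compared groups left out in turn and the fit without Dnmt TKO, which was chosen after seeing the data. Over all bins, 23 were called between long-term and early Tet iTKO, but 7 without the pre-treatment and 11 without the acute Tet iTKO library, and the cause was not tested. At a log2 difference of 1.0, 0 members were past the fold in Dnmt TKO, and 4 to 6 were past 0.5 under the other alternatives. The median difference of long-term Tet iTKO from long-term Ctrl, -0.01, lay between -0.00 and 0.02 with 1 library left out, also added after seeing the data, so its sign is not read. No paired analysis was possible because the groups tested share fewer than 2 replicate numbers, and the long-term groups that share them are given with no test.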
